A study of Homo sapiens with 12 samples.

Results

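The 36 genes described here encode the DNA replication machinery and its S phase regulators, and they were taken from the 40173 gene IDs of the deposited table as a named list (MCM2 to MCM7, MCM10, CDC6, CDT1, CDC45, GINS1, GINS2, POLA1, POLD1, POLE, PRIM1, PCNA, RFC2, RFC3, RFC4, FEN1, RPA2, RRM1, RRM2, TYMS, UNG, E2F1, DTL, SLBP, ATAD2, CHEK1, CLSPN, BRCA1, BRCA2, RAD54L and EXO1). Each symbol matched 1 gene ID, and all 36 passed the minimum of 2 TPM (a transcript share scaled for length) in at least 1 condition that was required for testing. RNA was sequenced from 624Mel, an established human melanoma cell line, reverse transfected either with siCTRL, a control siRNA, or with siMITF, which targets MITF, the master transcription factor of the melanocyte lineage. Either knockdown state was left without cytokine or received 5 ng/mL IFNγ 24 h after transfection, for a further 24 h, which gives 4 conditions of 3 libraries each. All cells carried a transfected siRNA, and 1 line with a transient knockdown stands for each state. The libraries are numbered 1 to 3 within each condition, and the study describes its replicates as independent biological ones.

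Replication begins when CDC6 and CDT1 load the MCM2 to MCM7 helicase on origins in G1. The helicase is activated in S phase by MCM10, CDC45 and the GINS complex, primase and the replicative polymerases then copy DNA behind it, and the PCNA clamp with its RFC loader keeps the polymerases attached. Most genes of this machinery are transcribed under E2F factors, so their transcripts follow the fraction of cycling cells in culture. IFNγ signals through JAK kinases, induces the transcription factor IRF1 and is known for slowing the growth of many tumour cells, and MITF is known for activating cell cycle genes in melanocytes. In RNA from whole cultures, fewer cells in S phase and less of a transcript per cell cannot be told apart.

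The knockdown and the cytokine were visible in every library. MITF was 187 to 229 TPM in siCTRL, 158 to 246 in siCTRL + IFNγ, 36.01 to 49.7 in siMITF and 37.5 to 55.1 in siMITF + IFNγ. IRF1, a transcription factor induced by IFNγ, was 2.31 to 3.35 TPM without IFNγ and 76.8 to 170 with it. The melanoma markers SOX10, PMEL, MLANA, TYR and S100B were all expressed, whereas none of 9 markers of immune, endothelial, epithelial and fibroblast cells reached the 2 TPM minimum and CD3E was listed at 0 throughout. Transcripts of the mitochondrial genome took 7.42% to 16.9% of the TPM. Libraries with number 1 were the lowest of their condition for 35 of the 36 genes in both siCTRL conditions, for 27 in siMITF without IFNγ and for 33 with it. The shift was not confined to these genes. The median log2(TPM + 1) of all tested genes was also lowest in number 1 in siCTRL (4.254, against 4.43 and 4.308) and siCTRL + IFNγ (4.144, against 4.465 and 4.331). This held in siMITF + IFNγ too (4.206, against 4.395 and 4.377), but not in siMITF (4.344, against 4.434 and 4.313). The share of all tested genes lowest in number 1 was not counted. Both IFNγ libraries with number 1 held the highest mitochondrial share, 16.9%. Counts without these libraries or without the mitochondrial genes are given beside the results.

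The promoters of the replication genes were searched for the letters of short motifs, of which 3 are given here, to show what sequence the genes have in common. RefSeq (GRCh38.p14) promoter windows of 300 bases, from 250 before to 50 after a start, were at hand for 32 of the 36 genes, with 45 windows in all since some genes have several starts, whose windows can overlap. An E2F motif, written as TTTCCCGC, TTTCGCGC, TTTGCCGC or TTTGGCGC on either strand, occurred in 40% of these windows and in 3.31% of the 35116 windows of all genes. The CCAAT box (CCAAT, either strand), bound by the factor NF-Y, occurred in 66.7% of them and in 34.6% of all windows. The letters TCATGTG or TCACGTG of the MITF E-box, again on either strand, occurred in 8.89% against 6.52%. These shares describe letters only and show no binding. The 150 bases before the start are shown for 4 genes, with E2F and CCAAT matches in capitals. They are TYMS, with the largest fall under IFNγ (chr18:657503-657652, plus strand), and E2F1, which rose with the knockdown (chr20:33686386-33686535, minus strand). The others are MCM6, whose window held the most E2F matches, some overlapping (chr2:135876444-135876593, minus strand), and MCM10, with CCAAT boxes and no E2F match (chr10:13161408-13161557, plus strand).
TYMS: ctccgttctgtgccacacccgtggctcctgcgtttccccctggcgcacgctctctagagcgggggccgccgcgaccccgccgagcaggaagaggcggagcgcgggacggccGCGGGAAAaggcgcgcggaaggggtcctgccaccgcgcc
E2F1: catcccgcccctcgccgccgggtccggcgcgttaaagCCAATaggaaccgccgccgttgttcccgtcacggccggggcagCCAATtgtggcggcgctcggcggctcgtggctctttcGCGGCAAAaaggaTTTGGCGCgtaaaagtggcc
MCM6: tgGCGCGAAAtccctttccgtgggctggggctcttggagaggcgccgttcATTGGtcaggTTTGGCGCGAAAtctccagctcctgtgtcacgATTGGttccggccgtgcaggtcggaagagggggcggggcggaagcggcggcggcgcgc
MCM10: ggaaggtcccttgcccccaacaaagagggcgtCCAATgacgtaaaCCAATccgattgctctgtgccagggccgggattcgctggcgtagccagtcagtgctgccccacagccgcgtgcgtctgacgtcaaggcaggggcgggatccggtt

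Replication transcripts were lower with IFNγ. In siCTRL cells 13 of the 36 genes fell with IFNγ (limma, adjusted p under 0.05 over 12773 tested genes) and 0 rose, while 12.9% of all tested genes were called, 6.14% lower and 6.8% higher. No member changed by 1 or more on the log2 scale, which 2.61% of tested genes did. The fold changes were modest, from -0.60 to -0.14 on the log2(TPM + 1) scale used for every change given here, with a median of -0.36 against -0.07 for all tested genes, and each of the 36 lay below the median of all genes. For 25 genes all siCTRL + IFNγ libraries lay under all siCTRL libraries (18.1% of tested genes), and for 35 genes the IFNγ library was the lower one within each of the 3 library numbers (40.8% of tested genes). Libraries with one number shared deviations, and with the number as a block in the fit 31 genes fell, against 16% of tested genes. The count was 18 without the mitochondrial genes (18.1% of tested genes called) and 12 without both IFNγ libraries numbered 1 (15.8%). Without siCTRL_IFNg replicate 1 alone the count was 8 (10.4% of tested genes). It was also 8 without siCTRL_IFNg replicate 3 (8.25%) or siCTRL replicate 3 (8.67%). Without siCTRL replicate 2, the highest of its condition for 33 genes, it was 7 (8.3%).

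**Figure D1:**
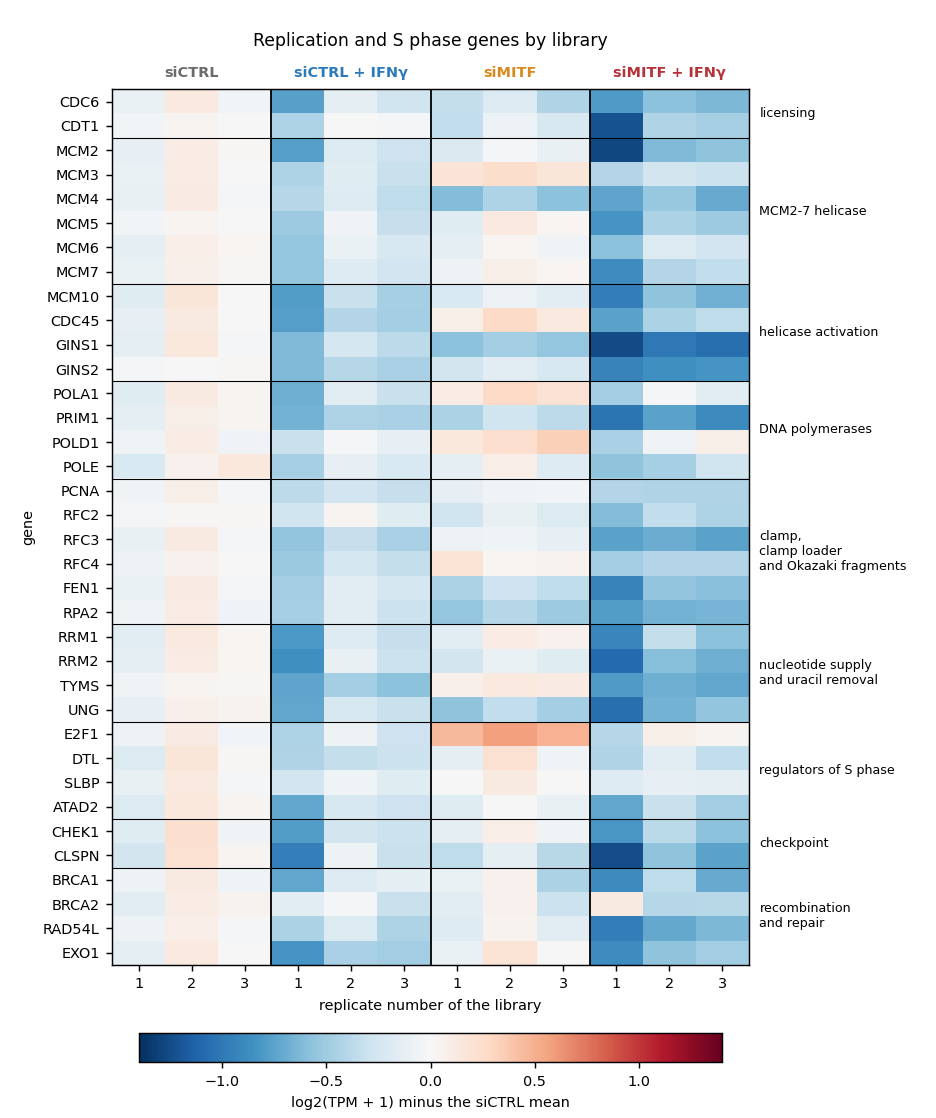
Heatmap of the 36 replication and S phase genes (rows, grouped by role) in the 12 libraries (columns, by condition and replicate number), coloured by log2(TPM + 1) minus the siCTRL mean of the gene. Both IFNγ blocks are blue over nearly all rows and darkest in their libraries with number 1, and E2F1 is the most orange row in siMITF.

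In siMITF cells the changes with IFNγ covered more genes. Of the 36 genes 19 fell and 0 rose, while 20.2% of tested genes were called, 12.2% lower and 7.99% higher. The changes ran from -0.84 to -0.09, with a median of -0.52 against -0.10 for all tested genes, and 35 genes lay below that median, BRCA2 being the exception. For 32 genes the libraries of both conditions did not overlap (28.4% of tested genes were lower in this way), and for 35 the IFNγ library was the lower one within each number (41.1% of tested genes). With the replicate block 34 genes fell, against 24.5% of tested genes. Without the mitochondrial genes the count was 24 (24.7% of tested genes called), and without both IFNγ libraries numbered 1 it was 21 (23.9%). The interaction, obtained by subtracting the IFNγ change of siCTRL cells from that of siMITF cells, was called for 0 of the 36 genes by limma, against 0.947% of tested genes, and also for 0 with the block. At an unadjusted p under 0.05 it was met by 1 gene, TYMS (-0.25, 95% interval -0.47 to -0.02, adjusted p = 0.567), and by 980 of the 12773 tested genes. The interaction was below 0 for 30 of the 36 genes and for 7370 of the 12773 tested genes, with a median of -0.12 against -0.03 for all genes. The larger count in siMITF cells is thus not a tested difference for any gene.

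Few of these genes were called with the knockdown of MITF alone. Against siCTRL, 6 genes fell in siMITF (MCM4, GINS1, RPA2, UNG, FEN1 and PRIM1) and 1 rose (E2F1), 19.4% of the members beside the 34.8% of all tested genes called in this comparison, of which 13.8% fell and 21% rose. The median was -0.09 against 0.06 for all tested genes, and 29 of the 36 genes lay below the median of all genes. For 10 genes the siMITF libraries all lay under the siCTRL ones (22% of tested genes) and for 4 above them (33% of tested genes). Within the library numbers 17 genes were lower each time (29.6% of tested genes) and 8 higher each time (44%). With the replicate block 9 fell and 4 rose, while 47.7% of tested genes were called, 18.9% lower and 28.8% higher. A log2 change of 1 or more was reached by 0 members and 6.17% of tested genes. Under IFNγ, siMITF cells had 10 genes lower than siCTRL cells (GINS1, CDT1, RAD54L, FEN1, RPA2, GINS2, PRIM1, MCM4, RFC2 and RFC3) and 0 higher, where 33.1% of tested genes were called and 14.7% fell, and 18 fell with the block (21% of tested genes). The genes that the block added were MCM2, MCM5, MCM7, MCM10, RRM2, CDC6, CLSPN and UNG. The median under IFNγ was -0.22 against 0.03 for all tested genes, and 32 of the 36 genes lay below the median of all genes. Within the library numbers 25 genes were lower each time (29.7% of tested genes), and 0 reached a log2 change of 1 (5.74% of tested genes). Without siCTRL_IFNg replicate 1 the count was also 18 (33.3% of tested genes called). Without the mitochondrial genes 11 members were called in siMITF vs siCTRL (9 lower, 2 higher) and 11 under IFNγ, beside 41.9% and 40.9% of tested genes. Without both IFNγ libraries numbered 1 these counts were 13 (10 lower, 3 higher) and 15, beside 46.7% and 36.1% of tested genes. FEN1, RPA2, GINS1, PRIM1 and MCM4 were called in both comparisons.

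With both treatments together the shift took in most of the machinery. Against siCTRL, 30 of the 36 genes fell in siMITF + IFNγ and 0 rose, while 44.5% of tested genes were called and 23.4% fell. The median was -0.63 against -0.04 for all tested genes, and 33 genes were lower within each library number (38.6% of tested genes). A log2 change of 1 or more was reached by 1 gene, GINS1, and by 8.81% of tested genes. The summed level of the 36 genes was 2974 to 3403 TPM in siCTRL, 2164 to 2766 in siCTRL + IFNγ, 2842 to 3118 in siMITF and 1913 to 2294 in siMITF + IFNγ. The sums of the doubly treated libraries thus lay under those of both untreated conditions, and they overlapped with those of siCTRL + IFNγ. The 6 genes that were not called were E2F1, POLA1, POLD1, BRCA2, SLBP and DTL. The count was 31 without the mitochondrial genes (50.3% of tested genes called) and also 31 without both IFNγ libraries numbered 1 (51%). This comparison and both single treatments share the siCTRL libraries.

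**Figure D2:**
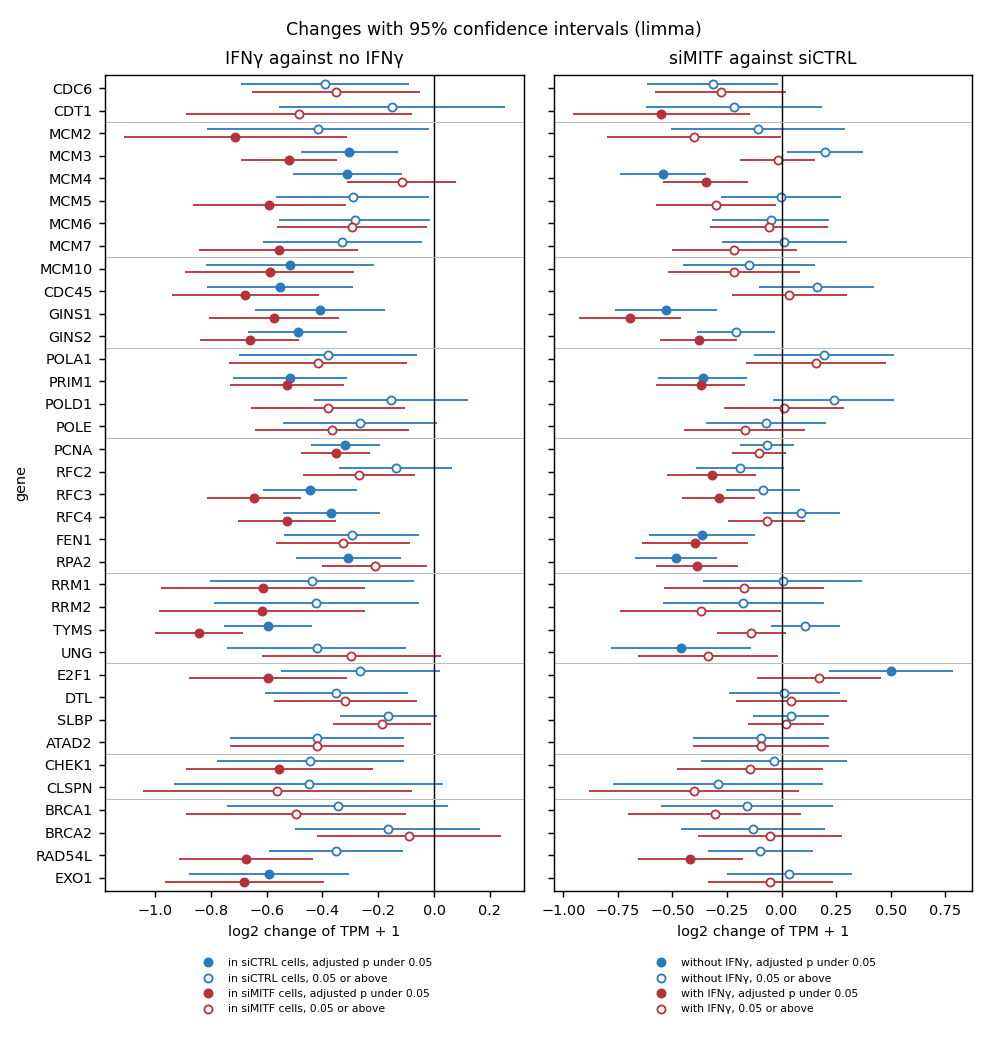
Change of each gene in log2(TPM + 1) with its 95% confidence interval (limma, 3 libraries per condition), for IFNγ against no IFNγ (left, blue in siCTRL and red in siMITF cells) and siMITF against siCTRL (right, blue without and red with IFNγ). Filled points passed an adjusted p under 0.05, and on the left every point lies under 0, whereas on the right they lie on both sides, with E2F1 at 0.50 as the highest and GINS1 at -0.70 as the lowest.

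Both licensing factors fell when the 2 treatments met. CDC6, the ATPase that recruits the helicase to origins, averaged 100.4 ± 8.74 TPM (SD, n = 3 here and below) in siCTRL, 77.5 ± 16.7 with IFNγ alone, 80.4 ± 6.56 with siMITF alone and 62.8 ± 5.01 with both, where it fell by 0.67 (adjusted p = 0.00181), and neither single treatment was called without the replicate block. With it CDC6 fell with the knockdown (-0.32, adjusted p = 0.0139) and with IFNγ (-0.39, adjusted p = 0.00892). CDT1, which loads the helicase with CDC6 and is destroyed once S phase starts, was 26.7, 28.3 and 27.5 TPM in siCTRL, 20.1, 27.4 and 27.2 in siCTRL + IFNγ, 21.4, 26.0 and 23.3 in siMITF and 11.2, 20.2 and 19.7 in siMITF + IFNγ. The first library of the last condition was far lower than its companions, and the IFNγ values in siCTRL cells overlapped with the untreated ones. CDT1 fell by 0.70 with both treatments (adjusted p = 0.00851) and by 0.55 with the knockdown under IFNγ (adjusted p = 0.0381). The latter call was lost in 7 of 24 alternative settings, among them the omission of siMITF_IFNg replicate 1. Its interaction was the largest in size of the 36 genes, -0.33 with an interval of -0.91 to 0.24, which includes 0.

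All 6 subunits of the MCM2 to MCM7 helicase, the motor that unwinds DNA at the fork, fell with both treatments, by 0.32 (MCM3) to 0.82 (MCM2). MCM2 was 45.7, 53.3 and 50.0 TPM in siCTRL, 28.7, 43.3 and 40.3 in siCTRL + IFNγ, 43.0, 49.0 and 46.0 in siMITF and 19.8, 32.0 and 33.2 in siMITF + IFNγ. It fell by 0.71 with IFNγ in siMITF cells (adjusted p = 0.0162), though not without siMITF replicate 2, and in siCTRL cells its change of -0.42 was not called (adjusted p = 0.171, or 0.0134 with the replicate block) though the libraries did not overlap. MCM3 was 143, 164 and 153 TPM in siCTRL, 114, 136 and 123 in siCTRL + IFNγ, 173, 182 and 173 in siMITF and 115, 128 and 125 in siMITF + IFNγ. Its siMITF libraries were all above the siCTRL ones (0.20, adjusted p = 0.0719, or 0.00753 with the replicate block), and it fell with IFNγ in siCTRL cells (-0.30, adjusted p = 0.0253) and in siMITF cells (-0.52, adjusted p = 0.00054), the former call being lost without siCTRL_IFNg replicate 1 or 3 and without siCTRL replicate 2 or 3. MCM4 was 90.5, 106 and 96.7 TPM in siCTRL, 73.4, 86.1 and 76.2 in siCTRL + IFNγ, 63.4, 71.8 and 65.0 in siMITF and 58.1, 67.0 and 59.4 in siMITF + IFNγ. It fell with the knockdown by 0.54 (adjusted p = 0.000514), which kept its call in all 24 settings, and with IFNγ in siCTRL cells by 0.31 (adjusted p = 0.0409), a call that 11 settings lost. In siMITF cells the change of MCM4 with IFNγ was -0.12 (adjusted p = 0.393). The interaction of MCM4 was not called (0.19, adjusted p = 0.853, or 0.231 with the block), so its changes with IFNγ are not shown to differ between the siRNA states. MCM5 and MCM7 fell with IFNγ in siMITF cells only by call (-0.59 and -0.56), and their changes in siCTRL cells were -0.29 and -0.33 (adjusted p = 0.163 and 0.13, or 0.0109 and 0.0083 with the block). Their interaction was not called. With the block both were lower with the knockdown under IFNγ (-0.30 and -0.22, adjusted p = 0.00463 and 0.037). MCM6 was called with both treatments together (-0.34, adjusted p = 0.0397), and 9 settings lost the call, among them the omission of siMITF_IFNg replicate 1. With the block MCM6 also fell with IFNγ in siCTRL and siMITF cells (adjusted p = 0.00824 and 0.00508).

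Without the replicate block, the factors that switch the loaded helicase on were the role group in which every gene fell with IFNγ in both siRNA states, 4 of 4. With the block this also held for the regulators of S phase (E2F1, DTL, SLBP and ATAD2). It held as well for the checkpoint genes CHEK1 and CLSPN, and for RRM1, RRM2, TYMS and UNG. CDC45, the helicase cofactor, was 59.8, 70.9 and 64.4 TPM in siCTRL, 37.5, 48.7 and 46.4 in siCTRL + IFNγ, 68.5, 78.4 and 71.2 in siMITF and 38.2, 47.4 and 50.4 in siMITF + IFNγ. The siCTRL and siMITF libraries overlapped (0.16, adjusted p = 0.34), and the IFNγ libraries lay clear below them, by -0.55 in siCTRL (adjusted p = 0.00934) and -0.68 in siMITF cells (adjusted p = 0.00174). MCM10, which helps to start the activated helicase, was 23.0, 29.4 and 26.2 TPM in siCTRL, 14.7, 20.9 and 18.6 in siCTRL + IFNγ, 22.3, 24.6 and 23.5 in siMITF and 12.8, 17.3 and 16.0 in siMITF + IFNγ. It fell by 0.52 and 0.59 with IFNγ (adjusted p = 0.0287 and 0.01), and the knockdown gave no call without the replicate block. With the block MCM10 was lower with the knockdown under IFNγ (-0.22, adjusted p = 0.0308). The calls of MCM10 and GINS1 in siCTRL cells were lost without siCTRL_IFNg replicate 1 or 3 and without siCTRL replicate 2 or 3, while those of CDC45 and GINS2 were kept in all 24 settings.

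Both GINS subunits lay lower in each treated condition than in siCTRL. GINS1 (ENSG00000101003, chr20:25391008-25452700) was 56.8, 68.9 and 61.1 TPM in siCTRL, 40.2, 52.4 and 47.8 in siCTRL + IFNγ, 41.5, 44.2 and 42.5 in siMITF and 25.5, 30.5 and 29.3 in siMITF + IFNγ. No doubly treated library reached the lowest value of any other condition. GINS1 fell by 0.53 with the knockdown (adjusted p = 0.00209), by 0.41 with IFNγ (adjusted p = 0.0256) and by 1.10 with both (SE 0.107, adjusted p = 3.89e-06), the largest change of the 36 genes and the only one past a log2 change of 1. The interaction was -0.17 (interval -0.50 to 0.16). GINS2 was 21.9, 22.2 and 22.5 TPM in siCTRL, 14.1, 16.6 and 15.9 in siCTRL + IFNγ, 18.4, 19.9 and 18.9 in siMITF and 11.2, 11.8 and 12.1 in siMITF + IFNγ. The 4 conditions of GINS2 did not overlap with each other in any pair, and it fell by 0.49 with IFNγ (adjusted p = 0.00146), by 0.66 with IFNγ in siMITF cells (adjusted p = 9.29e-05) and by 0.87 with both (adjusted p = 2.81e-06), whereas the knockdown alone was not called (-0.21, adjusted p = 0.0654, or 0.0246 with the replicate block).

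Among primase and the replicative polymerases the catalytic subunits differed. PRIM1, the primase subunit that makes the RNA primer (chr12:56730438-56752374), was 77.9, 89.8 and 87.2 TPM in siCTRL, 53.4, 62.6 and 61.6 in siCTRL + IFNγ, 62.0, 70.0 and 65.8 in siMITF and 41.4, 50.2 and 45.1 in siMITF + IFNγ. It fell in every comparison of 2 conditions, by 0.36 with the knockdown (adjusted p = 0.00998), 0.52 with IFNγ (adjusted p = 0.00277) and 0.89 with both (adjusted p = 8.51e-06). POLA1, the catalytic subunit of polymerase alpha that extends the primer, was 27.0, 33.5 and 31.4 TPM in siCTRL, 18.6, 27.4 and 24.5 in siCTRL + IFNγ, 32.9, 37.2 and 35.2 in siMITF and 21.6, 30.0 and 27.1 in siMITF + IFNγ. The siCTRL libraries of POLA1 overlapped with those of siCTRL + IFNγ and of siMITF, and the gene was called in no comparison without the replicate block. With the block POLA1 fell with IFNγ in siCTRL cells (-0.38, adjusted p = 0.00295), in siMITF cells (-0.42, adjusted p = 0.00115) and with both treatments (-0.22, adjusted p = 0.0232). It rose with the knockdown (0.19, adjusted p = 0.0492). POLD1, of the lagging strand polymerase delta, was 42.1, 47.3 and 42.3 TPM in siCTRL, 35.1, 42.9 and 40.2 in siCTRL + IFNγ, 48.8, 51.6 and 55.4 in siMITF and 31.6, 42.3 and 46.3 in siMITF + IFNγ. All siMITF values of POLD1 lay above all siCTRL ones without passing the test (0.24, adjusted p = 0.171, or 0.0412 with the block). With IFNγ in siMITF cells POLD1 was at -0.38 (adjusted p = 0.0522, or 0.00555 with the block). POLE, of the leading strand polymerase epsilon, was called with both treatments only (-0.44, adjusted p = 0.014), and not without siCTRL replicate 3. The block added its changes with IFNγ in siCTRL and siMITF cells (adjusted p = 0.0466 and 0.0076).

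The clamp, its loader and the enzymes of Okazaki fragments all fell with both treatments, 6 of 6. PCNA, the sliding clamp and the most abundant of the 36 transcripts per length, averaged 459 ± 22.4 TPM in siCTRL, 368 ± 12.6 with IFNγ alone, 438 ± 11.9 with siMITF alone and 343 ± 1.12 with both, and fell with IFNγ in siCTRL (-0.32, adjusted p = 0.00239) and in siMITF cells (-0.35, adjusted p = 0.000818). Of the clamp loader, RFC3 and RFC4 fell with IFNγ in both siRNA states, by 0.44 and 0.37 in siCTRL and by 0.65 and 0.53 in siMITF cells. RFC3 was also called with the knockdown under IFNγ (-0.29, adjusted p = 0.0125). RFC2 was called with the knockdown under IFNγ (-0.32, adjusted p = 0.0187) and with both treatments (-0.46), the former not without siMITF_IFNg replicate 1 or siCTRL_IFNg replicate 2. With the block RFC2 also fell with the knockdown alone (-0.19, adjusted p = 0.0237) and with IFNγ in siMITF cells (-0.27, adjusted p = 0.00523). FEN1, the flap nuclease that trims Okazaki fragments, was 192, 221 and 202 TPM in siCTRL, 146, 183 and 173 in siCTRL + IFNγ, 150, 167 and 160 in siMITF and 107, 140 and 136 in siMITF + IFNγ. FEN1 libraries with siMITF lay under those with siCTRL in both cytokine states (-0.36, adjusted p = 0.0229, and -0.40, adjusted p = 0.0159). The former call was lost without siMITF replicate 1 or 3 and without siCTRL replicate 2 or 3, the latter without siCTRL_IFNg replicate 2 or 3. With IFNγ FEN1 was at -0.30 in siCTRL cells (adjusted p = 0.11, or 0.00378 with the block). In siMITF cells it was at -0.33 (adjusted p = 0.0571, or 0.00139 with the block). RPA2, a subunit of the protein that coats single-stranded DNA, was 125, 139 and 124 TPM in siCTRL, 93.0, 115 and 105 in siCTRL + IFNγ, 88.3, 97.2 and 90.5 in siMITF and 74.8, 81.3 and 81.8 in siMITF + IFNγ. It fell by 0.48 with the knockdown (adjusted p = 0.000864) and by 0.70 with both treatments (adjusted p = 3.34e-05), and its fall with IFNγ in siCTRL cells (-0.31, adjusted p = 0.0354) was lost in 11 settings, each omission of a siCTRL library among them. In siMITF cells the change of RPA2 with IFNγ was -0.21 (adjusted p = 0.105, or 0.0136 with the block).

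The enzymes of nucleotide supply held the most significant change with IFNγ. TYMS, thymidylate synthase, which makes the thymidine nucleotide, lies at chr18:657653-673578 and was 122, 130 and 129 TPM in siCTRL, 76.1, 91.0 and 85.0 in siCTRL + IFNγ, 134, 140 and 138 in siMITF and 73.2, 78.9 and 76.3 in siMITF + IFNγ. The IFNγ libraries lay far below the others, and the siMITF libraries without IFNγ just above the siCTRL ones (0.11, adjusted p = 0.28). TYMS fell by 0.60 with IFNγ in siCTRL cells (SE 0.0727, adjusted p = 0.000101) and by 0.84 in siMITF cells (SE 0.0727, adjusted p = 3.02e-06). ENOSF1 runs antisense over 39.9% of its exonic bases, and the library kit does not keep strand, but ENOSF1 was listed at 6.44 to 9.10 TPM as condition means. RRM1 and RRM2, both subunits of ribonucleotide reductase, were called with IFNγ in siMITF cells (-0.61 and -0.62) and with both treatments (-0.61 and -0.79), and the changes of -0.44 and -0.42 in siCTRL cells were not called (adjusted p = 0.118 and 0.134, or 0.00124 and 0.00578 with the block). The calls in siMITF cells were lost without siMITF_IFNg replicate 1 and without siMITF replicate 2 or 3.

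UNG, the glycosylase that removes uracil from DNA, was 36.9, 41.9 and 41.3 TPM in siCTRL, 23.7, 34.1 and 32.0 in siCTRL + IFNγ, 26.7, 31.3 and 28.4 in siMITF and 18.7, 24.9 and 26.9 in siMITF + IFNγ. The single treatments each lay below siCTRL without overlap, and with IFNγ the change of -0.42 was called with the block (adjusted p = 0.0858, or 0.00357 with it). Its fall with the knockdown was -0.46 (adjusted p = 0.0288) and was lost without siMITF replicate 1 or 3 and without siCTRL replicate 2 or 3, and the fall with both treatments was -0.76 (adjusted p = 0.00119).

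The regulators of S phase held the 1 gene that rose. E2F1, an activator of the S phase programme (chr20:33675477-33686385), was 17.8, 20.4 and 18.3 TPM in siCTRL, 13.6, 17.9 and 15.2 in siCTRL + IFNγ, 26.0, 28.4 and 26.7 in siMITF and 14.1, 19.9 and 19.4 in siMITF + IFNγ. Every siMITF library without IFNγ was above every other library. E2F1 rose by 0.50 with the knockdown (adjusted p = 0.00966), a call kept in the same 24 settings, and fell by 0.60 with IFNγ in siMITF cells (adjusted p = 0.00652), so that its doubly treated level was near siCTRL (-0.09, adjusted p = 0.599). Its interaction of -0.33 was not called (interval -0.73 to 0.07, adjusted p = 0.78). SLBP, which binds histone mRNA, moved little, with 78.8, 93.5 and 83.4 TPM in siCTRL, 70.5, 81.4 and 75.7 in siCTRL + IFNγ, 85.2, 92.6 and 85.1 in siMITF and 74.7, 78.2 and 77.6 in siMITF + IFNγ. DTL, an adaptor of the ligase that destroys CDT1, was 21.2, 27.3 and 24.6 TPM in siCTRL, 17.9, 19.0 and 19.5 in siCTRL + IFNγ, 22.1, 28.3 and 23.4 in siMITF and 17.8, 21.8 and 18.8 in siMITF + IFNγ. Neither SLBP nor DTL was called in any comparison without the replicate block, with DTL at -0.31 (adjusted p = 0.0512, or 0.00387 with the block) for both treatments. With the block DTL and SLBP also fell with IFNγ, in siCTRL cells (adjusted p = 0.00481 and 0.0458) and in siMITF cells (adjusted p = 0.00608 and 0.0204). SLBP then fell with both treatments too (-0.14, adjusted p = 0.041). ATAD2, a chromatin ATPase and E2F coactivator, was called with both treatments only (-0.51, adjusted p = 0.0116), and not without siCTRL replicate 2. The block also called its changes with IFNγ in siCTRL and siMITF cells (adjusted p = 0.00156 and 0.00107).

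The checkpoint genes CHEK1, the kinase that restrains origin firing under stress, and CLSPN, its adaptor claspin, both fell with both treatments (-0.59 and -0.85). CHEK1 also fell with IFNγ in siMITF cells (-0.55, adjusted p = 0.0235), except without replicate 1 or 3 of siMITF_IFNg and without siMITF replicate 2 or 3. In siCTRL cells its change with IFNγ was -0.44 (adjusted p = 0.0822, or 0.00136 with the replicate block). CLSPN had wide replicates, with 23.2, 32.4 and 28.6 TPM in siCTRL, 13.8, 26.4 and 22.1 in siCTRL + IFNγ, 21.6, 25.3 and 21.0 in siMITF and 11.2, 18.5 and 16.1 in siMITF + IFNγ. Its libraries with number 1 were well below numbers 2 and 3 in both IFNγ conditions, and the change with IFNγ was not called in siCTRL cells (-0.45, adjusted p = 0.222) or in siMITF cells (-0.56, adjusted p = 0.0949). With the replicate block it was called in both cases.

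Of the recombination and repair genes, EXO1 and RAD54L showed the clearest falls. EXO1, the resection nuclease, was 38.9, 47.1 and 42.9 TPM in siCTRL, 23.7, 30.9 and 30.2 in siCTRL + IFNγ, 40.2, 49.1 and 43.0 in siMITF and 22.8, 28.6 and 30.4 in siMITF + IFNγ. The IFNγ libraries of EXO1 did not overlap with the untreated ones (-0.59, adjusted p = 0.0102, and -0.68, adjusted p = 0.00294), the former call being lost without siCTRL replicate 2, and with the knockdown it was at 0.04 (adjusted p = 0.862). RAD54L, a motor protein of homologous recombination, was 22.5, 25.4 and 23.3 TPM in siCTRL, 17.2, 20.6 and 17.4 in siCTRL + IFNγ, 20.8, 24.5 and 21.1 in siMITF and 11.6, 14.02 and 14.9 in siMITF + IFNγ. Its doubly treated libraries stood below all the rest, and RAD54L fell by 0.67 with IFNγ in siMITF cells (adjusted p = 0.000941), while the change of -0.35 in siCTRL cells just missed the threshold (adjusted p = 0.0558, or 0.0066 with the block) and the interaction was -0.32 (interval -0.66 to 0.02). BRCA1 was called with both treatments (-0.65, adjusted p = 0.0112) and, with the block, also with IFNγ in siMITF cells (adjusted p = 0.0138). BRCA2, at 6.71 to 10.1 TPM over all libraries the lowest of the 36 genes, was called in no comparison.

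Reads of some members may be split with other genes. The exons of 9 of the 36 genes overlap those of another gene with at least 2 TPM on average (GENCODE v44). The share of exonic bases was 19.9% for RAD54L with LRRC41, 7.9% for MCM7 with AP4M1, 4.2% for PRIM1 with NACA, and 2.23% or less for CHEK1, FEN1, GINS2, RFC4 and DTL. NACA is abundant, at 1240 to 1362 TPM as condition means. Among the other genes named next, RAD54B shares 66% with FSBP, CCNE2 37% with INTS8 and E2F5 16.6% with RBIS, so these levels are uncertain too.

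Lists of other genes around replication are given by their counts beside the shares of all tested genes. These were 6.14% lower and 6.8% higher with IFNγ in siCTRL cells, 12.2% and 7.99% in siMITF cells, and 13.8% lower and 21% higher with the knockdown. Of 33 other replication genes 8 fell and 1 rose with IFNγ in siCTRL cells, with a median of -0.26, and in siMITF cells 18 fell, with a median of -0.37, which is 27.3% and 54.5% of the list called. RFC5, a further clamp loader subunit, fell by 0.44 with IFNγ in siCTRL cells (adjusted p = 0.00383). PRIM2, the second primase subunit, and DONSON, a fork protein, fell with the knockdown (-0.45 and -0.36), and CDC7, the kinase that triggers origin firing, rose with it (0.42, adjusted p = 0.0111). Of 17 other recombination and fork repair genes 4 fell and 1 rose with IFNγ in siCTRL cells, 29.4% of the list, among them XRCC2 (-0.41) and RAD54B (-0.43), while NBN of the MRN complex rose (0.48, adjusted p = 0.0029). In siMITF cells 9 fell and 1 rose. Of 12 other nucleotide supply genes 1 fell and 1 rose with IFNγ in siCTRL cells, and 5 fell and 1 rose in siMITF cells. With 1 of 12 lower the share in siCTRL cells is near that of all tested genes. DTYMK, thymidylate kinase, was the one that fell in siCTRL cells (-0.42, adjusted p = 0.00825). SAMHD1, which degrades deoxynucleotides, rose from 14.6 ± 1.47 TPM in siCTRL to 123 ± 18.9 in siCTRL + IFNγ (2.98, adjusted p = 1.84e-09) and from 20.9 ± 2.87 in siMITF to 191 ± 9.53 in siMITF + IFNγ. With the knockdown RRM2B, the reductase subunit of resting cells, rose (0.48) and GMPS, of guanine synthesis, fell (-0.36).

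Among regulators outside the members, CDK2, the kinase of S phase entry, fell by 1.43 with the knockdown (adjusted p = 6.86e-08) and CCNE2, its cyclin partner, by 0.54, whereas the inhibitor CDKN2C and the G1 kinase CDK6 rose (0.88 and 0.45). CDK2 shares 2.29% of its exonic bases with antisense PMEL, which averaged 4827 TPM in siCTRL and 1078 in siMITF, so its level is uncertain. These 4 genes were the called ones of 10 tested in the G1/S list, 40% beside 34.8% of all tested genes, in which 2 fell with IFNγ in siCTRL and 3 in siMITF cells. CDC25A, the phosphatase that activates CDK2, fell by 1.11 with the knockdown (adjusted p = 0.000144) and HUS1, of the checkpoint clamp, by 0.41, 2 of the 9 other checkpoint genes tested (22.2% beside 34.8%). In the same list WEE1, the kinase that holds CDKs inactive, was the 1 gene that fell with IFNγ in siCTRL cells (-0.52), where 3 fell in siMITF cells, and CHEK2 was at -0.49 in siCTRL cells (adjusted p = 0.0571). Of 13 genes of histone supply and chromatin assembly 4 fell and 1 rose with the knockdown, a share of 38.5% near the 34.8% of all tested genes. CHAF1B, a subunit of the assembly factor CAF-1, was at -1.01, NPAT, the coactivator of histone genes, at -0.88, the histone variant gene H2AZ1 at -0.70 and the methylation factor UHRF1 at 0.55. With IFNγ 4 fell in siCTRL (30.8%) and 8 in siMITF cells (61.5%). Of 17 E2F and pocket protein genes, E2F5 and RBL2 rose with the knockdown (0.71 and 0.31) and TFDP2 fell (-0.34), 17.6% beside 34.8% of all tested genes. With IFNγ TFDP1 fell in siCTRL cells (-0.34) and 4 genes in siMITF cells, and the share in siCTRL cells, 5.88%, is near the 6.14% of all tested genes. The mitosis list, as a comparison outside S phase, showed 9 of 15 genes lower with IFNγ in siCTRL (6.14% of all tested genes) and 15 of 15 in siMITF cells (12.2%), with medians of -0.35 and -0.67. CCNB2, AURKB, KIF11 and CDC20 were among them, and 0 genes had a called interaction. With the knockdown 2 of the 15 rose, CDC20 (0.37) among them, and 1 fell, AURKB (-0.26), 20% beside 34.8% of all tested genes.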

How the data were processed

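RNA of 12 libraries (4 conditions, 3 replicates each) was prepared with the TruSeq RNA v2 kit, which does not mark strand, and sequenced on a NovaSeq. Per the study's methods and the submitters' processing notes, the authors trimmed reads with Trimmomatic (version 0.39), quantified them with kallisto on the Ensembl GRCh38 transcriptome and used DESeq2 (version 1.26.0) for their own comparisons. The deposited table gives TPM per gene for each library. The Ensembl release and the summing of transcripts to genes are not given in the sources used here. TPM keep no read number, so library depths are unknown and count tests were left out.

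Here log2(TPM + 1) was fitted with limma (version 3.58.1, R 4.3.3), with 1 mean per condition over all 12 libraries, an intensity trend in the empirical Bayes step, two-sided tests and Benjamini-Hochberg adjustment over 12773 gene IDs, those reaching on average 2 TPM or more in some condition. Changes on this scale understate those of low genes. A gene was called at an adjusted p under 0.05. An exact permutation test of 3 against 3 libraries cannot go below p = 0.1 and was not used. The interaction is the difference between both changes with IFNγ. The fit was tested on simulated data. Figures were drawn with Python 3.11.15, pandas 2.3.3, numpy 2.4.6 and matplotlib 3.10.9. Gene positions and exon overlaps are from GENCODE v44 (GRCh38).

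The labels number the libraries, without saying what a number shares. Deviations from the condition means correlated at 0.102 to 0.625 (median 0.279) in the 18 pairs of libraries with one number and at a median of -0.196 in the 36 pairs with different numbers, so the numbers were taken as pairing the libraries, and the model was fitted again with library number as a blocking term. P-values measure the spread between these libraries, which may be partly technical. Other alternatives were the pseudocount, the filter, the scaling, the trend, the thresholds and the omission of each library.

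The members, roles and the lists (other replication, nucleotide supply, recombination, checkpoint, histone supply, E2F and pocket protein, G1/S, mitosis, treatment check, melanoma and other cell marker genes) were chosen with earlier results of these data known. All members are named. Values in every library are given for the 5 largest rises and falls of each comparison and the 3 largest interactions. Of each list, up to 4 genes are named with their changes, those with the lowest adjusted p in siMITF vs siCTRL or siCTRL_IFNg vs siCTRL. Some items are not reported here.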

Additional observations from a re-analysis of the deposited data

How the results depend on the processing

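The direction of no called gene turned in any alternative, and 56 of the 79 calls of members held in all of the 24 settings that kept the thresholds. In many settings the direction could not turn, since they leave the change itself as it is and alter only its spread or the adjustment. These were the replicate block, the trend, the filter, the thresholds, the fit of only the 2 conditions and the omission of a library outside the comparison. In the order siMITF vs siCTRL, siMITF_IFNg vs siCTRL_IFNg, siCTRL_IFNg vs siCTRL and siMITF_IFNg vs siMITF, the numbers of called members (7, 10, 13 and 19) became 11, 18, 27 and 32 with quantile normalization and 11, 19, 29 and 34 with median centring. The shares of all tested genes called (34.8%, 33.1%, 12.9% and 20.2%) became 43.5%, 44.6%, 22.1% and 31.3% with quantile normalization. With median centring they were 44.4%, 43.2%, 22% and 29.8%. With the replicate block the numbers of called members became 13, 18, 31 and 34, beside 47.7%, 46.3%, 25.7% and 35.7% of tested genes. With the replicate block and no mitochondrial genes, a setting added after seeing the data, they were 14, 20, 30 and 34, beside 50%, 49.5%, 26.6% and 33.9%. A fold limit of 1 on the log2 scale left 0 called members in each of these comparisons (6.17%, 5.74%, 2.61% and 2.98% of tested genes). It left 1, GINS1, in siMITF_IFNg vs siCTRL (8.81%). In siMITF vs siCTRL the count was 11 without mitochondrial genes (41.9% of tested genes) and 12 with only the 2 conditions compared (45.6%). It was 13 with both IFNγ libraries numbered 1 omitted (46.7%), also added after seeing the data. With only the 2 conditions compared it was 2 in siMITF_IFNg vs siCTRL_IFNg (21.4% of tested genes) and 8 in siCTRL_IFNg vs siCTRL (8.44%). At an adjusted p under 0.01 it was 4 and 7 (21.7% and 6.79% of tested genes). Leaving out 1 library gave 5 to 10, 7 to 18, 7 to 19 and 15 to 28 in the same order, 28 to 31 in siMITF_IFNg vs siCTRL and 0 to 0 for the interaction, which had 0 called members in each setting in which it could be fitted (not with only the 2 conditions compared). The shares of tested genes called then ran from 27.2% to 38.7%, 25.7% to 33.8%, 8.25% to 16% and 12.9% to 24.5% in that order. They ran from 37.4% to 48% in siMITF_IFNg vs siCTRL. The causes were not tested. With 3 libraries per condition and no read numbers, small changes and counting error could not be assessed.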
